A study of Mus musculus with 4 samples.

Results

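The genes described here are 10 output genes of the circadian clock in mouse liver, namely Dbp, Tef, Hlf, Nr1d1, Nr1d2, Per1, Per2, Per3, Cry2 and Bhlhe41. They were chosen by name from the 33639 gene symbols of the deposited tables, and all 10 were found. RNA of whole liver had been sequenced from 4 male mice, 1 for each genotype: wild type (WT), a global Cyp27a1 knockout (Cyp27a1 KO), a global Cyp3a knockout (Cyp3a KO; the genotype label writes Cyp3a4, a human symbol) and the global knockout of both (DKO). The mice were group housed under a 12 h light and dark cycle with standard chow ad libitum and had no treatment; the sources used here state neither strain nor age nor the hour at which each liver was taken. Because clock genes differ with the hour, genotype, individual mouse and collection time cannot be told apart in any comparison below, and no p-value is given.

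In the clock, the activators ARNTL (BMAL1), CLOCK and NPAS2 bind the E-box, a short DNA motif, and switch on the Per, Cry, Nr1d, Dbp and Bhlhe41 genes. PER and CRY proteins then block these activators, and the REV-ERB receptors encoded by Nr1d1 and Nr1d2 repress Arntl, so that output genes and Arntl peak in opposite parts of the day. DBP, TEF and HLF are PAR bZIP transcription factors that activate genes through the D-box motif, where NFIL3 (E4BP4) represses, and in liver they are known for driving daily rhythms of drug and sterol metabolism.

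The libraries held 49745876 to 50378118 counts. The deleted genes followed the labels: Cyp27a1 stood at 57.6 and 65.3 CPM in the libraries without it (Cyp27a1 KO, DKO) against 746 and 727 CPM in WT and the Cyp3a KO, and Cyp3a11, the main hepatic Cyp3a, was at 0.16 CPM (Cyp3a KO) and 4.76 CPM (DKO) against 8742 CPM in WT. All 6 hepatocyte markers were measured, with a summed level of 68502 to 111168 CPM. In the DKO, 2 of them (Ttr, Serpina1c) were called lower than in WT, as were 4.02% of all genes measured. CPM is a gene's count scaled to a library of 1000000 counts after TMM adjustment, which sets the bulk of genes level between libraries. A gene was measured where its mean over the 4 libraries was at least 1 CPM, which 11743 genes were. A difference was called where it reached 2-fold in either direction on the log2 scale of CPM plus 0.5 and the 95% interval around the ratio of counts (exact, binomial) left out 1. Intervals in parentheses cover counting error only, not the spread between mice.

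The promoters are shown first, since the group is named after the E-box and D-box motifs, though not every window held one. RefSeq windows on GRCm38.p6 ran from 250 bases before to 50 after each transcription start. They were given for 9 of the 10 genes, all but Per2, which was not searched (11 windows, as Tef and Per1 have 2 starts each). These starts need not be the first base of the GENCODE gene, and both of Per1 lie inside it. Both strands were searched for the E-box CACGTG, the E-prime box CACGTT, the D-box TTATGTAA or TTACGTAA, the cyclic AMP response element TGACGTCA and the ROR element TAGGTCA. No motif match overlapped another. Per3 was the single gene of these 9 with a D-box, and it held 2, starting 205 and 158 bases before the start (chr4:151044616-151044915, minus strand). Over all 32851 windows of this length, 1.06% held a D-box and 8 held 2 or more. The Per3 window is printed whole because both of its D-boxes, in capitals, lie in it:
Per3: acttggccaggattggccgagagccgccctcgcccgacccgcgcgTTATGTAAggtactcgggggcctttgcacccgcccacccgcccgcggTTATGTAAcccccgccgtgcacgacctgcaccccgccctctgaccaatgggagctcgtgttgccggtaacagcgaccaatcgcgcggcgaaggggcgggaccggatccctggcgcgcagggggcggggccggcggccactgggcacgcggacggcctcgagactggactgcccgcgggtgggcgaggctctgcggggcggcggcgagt

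Single E-boxes or E-prime boxes lay in the windows of Tef (both starts), Per1 (its first start), Bhlhe41, Nr1d1 and Cry2, while Hlf held a cyclic AMP response element 9 bases before its start. E-boxes were found in 7.15% of all windows, E-prime boxes in 4.68%, the cyclic AMP element in 1.79% and the ROR element in 2.61%, the last in none of these genes. Stretches of 60 bases around each match, motif in capitals and read 5′ to 3′ on the gene's strand, are set out to show how the flanks differ around a shared core. An E-prime box printed as AACGTG is read on the other strand.
Tef first start (chr15:81802519-81802578): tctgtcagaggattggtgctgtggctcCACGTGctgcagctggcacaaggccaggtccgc
Tef second start (chr15:81811249-81811308): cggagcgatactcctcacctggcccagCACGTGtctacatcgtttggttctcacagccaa
Per1 (chr11:69098756-69098815): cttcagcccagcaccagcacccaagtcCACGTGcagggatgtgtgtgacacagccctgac
Bhlhe41 (chr6:145865541-145865600): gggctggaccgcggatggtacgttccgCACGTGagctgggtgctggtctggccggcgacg
Nr1d1 (chr11:98775373-98775432): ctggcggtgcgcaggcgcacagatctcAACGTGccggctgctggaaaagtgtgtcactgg
Cry2 (chr2:92434203-92434262): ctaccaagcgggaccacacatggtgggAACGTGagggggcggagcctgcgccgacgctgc
Hlf (chr11:90390893-90390952): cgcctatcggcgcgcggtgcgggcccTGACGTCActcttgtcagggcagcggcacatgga

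The Dbp window (chr7:45704997-45705296, plus strand) held none of the 5 motifs, and neither did that of Nr1d2; Dbp is printed because it had the widest range of levels among the 10 genes. A match is a string of letters and was not tested as a binding site, and its absence says nothing of motifs elsewhere in the gene.
Dbp: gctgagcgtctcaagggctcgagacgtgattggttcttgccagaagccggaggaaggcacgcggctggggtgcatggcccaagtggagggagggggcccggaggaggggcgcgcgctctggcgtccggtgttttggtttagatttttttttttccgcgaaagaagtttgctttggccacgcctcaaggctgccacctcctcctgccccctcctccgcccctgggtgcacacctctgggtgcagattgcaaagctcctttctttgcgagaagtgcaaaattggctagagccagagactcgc

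**Figure D1:**
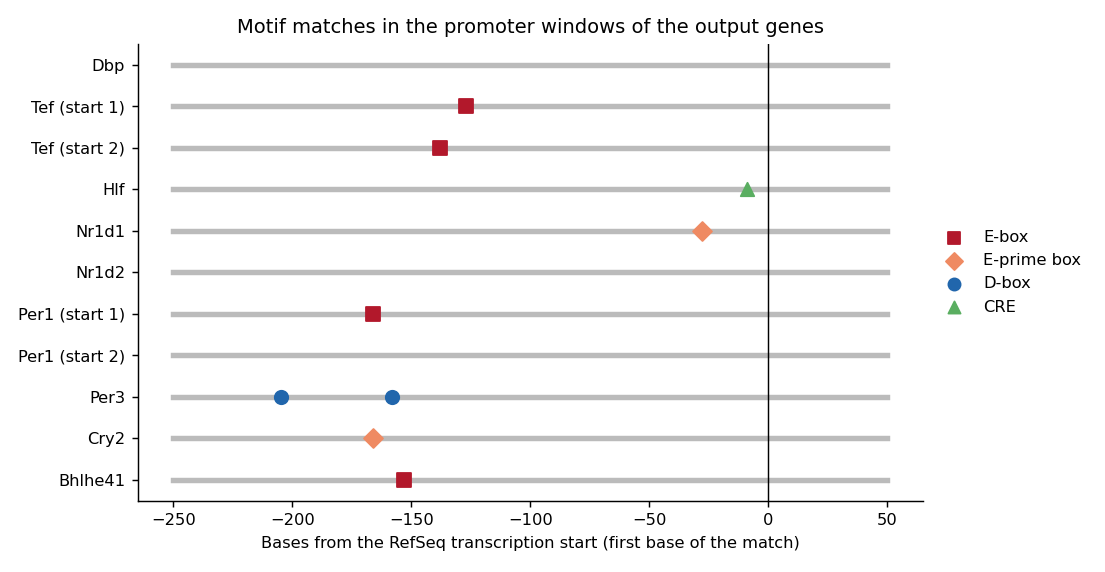
Motif matches along the RefSeq promoter windows, 1 grey bar per window from 250 bases before to 50 bases after the start; the horizontal axis gives the distance in bases of the first base of a match from the start. Per3 carries the 2 D-boxes, E-boxes or E-prime boxes lie in 6 windows, and 3 windows are empty.

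All 10 genes passed the filter. Bhlhe41 did so through the Cyp3a KO library, as its mean over the other 3 was 0.494 CPM. The highest level of a gene over its lowest spanned 40.8 times for Dbp, 30.3 times for Bhlhe41, 10.5 times for Nr1d1 and 9.24 times for Per3. At the other end it spanned 1.38 times for Hlf, 1.41 times for Per1 and 1.52 times for Cry2. On the log2 scale of CPM plus 0.5, the range of Hlf was wider than that of 50.5% of all genes measured. For Per1 this was 55.1% and for Cry2 65.1%, so these genes were not level compared with other genes. It was 99.6% for Dbp, 98.9% for Nr1d1, 98.6% for Bhlhe41 and 98.4% for Per3.

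Per transcript length, in TPM (transcripts out of 1000000, corrected for length), Tef was the most abundant of the 10 in WT (24.8 TPM), followed by Hlf (17.1), Nr1d2 (12.7), Per1 (11.0), Cry2 (10.1), Nr1d1 (6.27), Per2 (2.12), Dbp (1.87), Per3 (0.568) and Bhlhe41 (0.0893). With 1 mouse per genotype the spread between mice is not known, so neighbours in this order cannot be separated. Dbp moved from rank 8 in WT and the Cyp27a1 KO to rank 4 in the Cyp3a KO and rank 2 in the DKO. Nr1d1 moved from rank 6 in WT to rank 1 in the Cyp3a KO, at 70.8 TPM, and was at rank 5 in the DKO. Hlf moved from rank 2 in WT and the Cyp27a1 KO to rank 5 and rank 6.

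**Figure D2:**
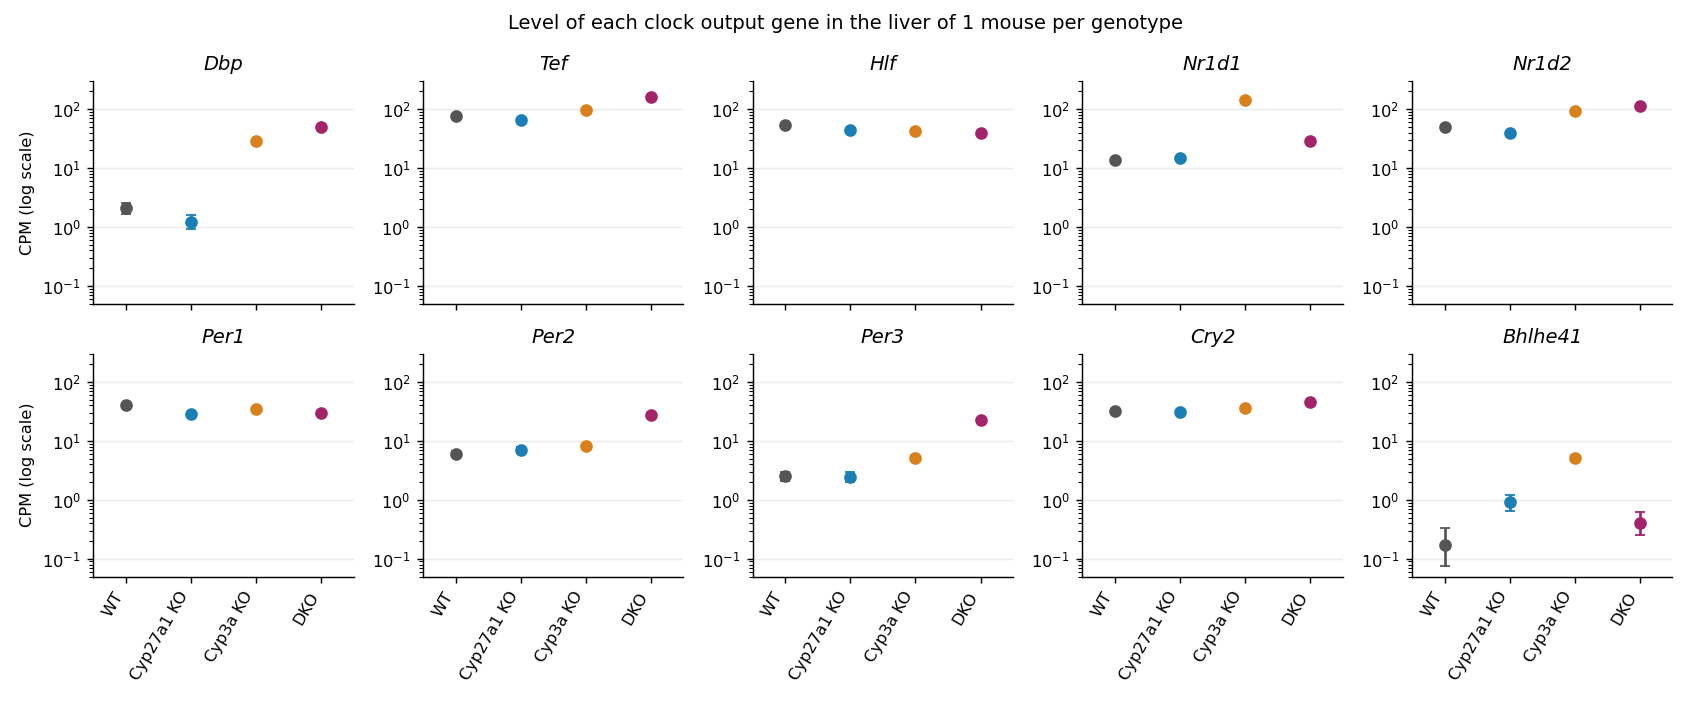
Level of each output gene in CPM (vertical axis, log scale) in the 4 libraries (horizontal axis); points are single libraries and bars are exact 95% Poisson counting intervals, which are smaller than most points. Dbp, Nr1d1 and Bhlhe41 are high in the Cyp3a KO, Dbp, Per2 and Per3 are high in the DKO, and Hlf, Per1 and Cry2 differ least among the 10 genes.

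Of the PAR bZIP genes, Dbp (chromosome 7, 45705088 to 45710203, plus strand, GENCODE M21 on mm10) was the most variable. It stood at 2.06 CPM for WT (96 counts), 1.22 for the Cyp27a1 KO (61 counts), 28.9 for the Cyp3a KO (1448 counts) and 50 for the DKO (2710 counts). The libraries with intact Cyp3a were low and the libraries without it were high. Dbp was 14.0-fold higher in the Cyp3a KO than in WT (11.4 to 17.5), 24.3-fold higher in the DKO than in WT (19.8 to 30.1) and 40.8-fold higher in the DKO than in the Cyp27a1 KO (31.7 to 53.5). DKO and Cyp3a KO differed by 1.73-fold (1.62 to 1.85), under the 2-fold rule; on deposited TPM it was 2.27-fold and called. Dbp shares 539 exonic bases (18.0%) with Sphk2 on the opposite strand, and the kit named in the labels does not mark strand; Sphk2 stood at 46.0, 51.8, 73.5 and 54.7 CPM in WT, Cyp27a1 KO, Cyp3a KO and DKO.

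Tef (chromosome 15, 81802421 to 81826863, plus strand), a relative of Dbp that binds the same motif, was the most abundant member of its family in every library. It stood at 77.9 CPM for WT, 66.2 for the Cyp27a1 KO, 97.1 for the Cyp3a KO and 162 for the DKO. The DKO was the high library, 2.08-fold above WT (2.0 to 2.16) and 2.44-fold above the Cyp27a1 KO (2.35 to 2.54), both called. The Cyp3a KO was 1.25-fold above WT (1.19 to 1.30), which was not called.

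Hlf (chromosome 11, 90336536 to 90390895, minus strand), the remaining PAR bZIP gene, stood at 53.4 CPM for WT, 44.0 for the Cyp27a1 KO, 43.3 for the Cyp3a KO and 38.7 for the DKO. It was called in 0 of the 5 comparisons, and its widest difference, DKO against WT, was 1.38-fold lower (1.30 to 1.46). Summed over the family, PAR bZIP transcripts were 43.8 TPM for WT, 45.7 for the Cyp27a1 KO, 80.8 for the Cyp3a KO and 144 for the DKO. Dbp made up 4.26% of that sum for WT, 2.99% for the Cyp27a1 KO, 30.6% for the Cyp3a KO and 39.0% for the DKO, while the share of Hlf went from 39.1% in WT to 10.6% in the DKO. Tef held 49.4% to 59.0% of the family in every library.

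The REV-ERB genes encode haem-binding nuclear receptors that repress Arntl, Npas2 and Nfil3. Nr1d1 (REV-ERBalpha; chromosome 11, 98767932 to 98775333, minus strand) stood at 13.6 CPM for WT, 14.8 for the Cyp27a1 KO, 143 for the Cyp3a KO and 29.2 for the DKO. A single library, the Cyp3a KO, was far above the rest. There Nr1d1 was 10.5-fold higher than in WT (9.70 to 11.4), and the DKO was 2.14-fold above WT (1.95 to 2.35), a call lost with a pseudocount of 2, and 4.91-fold below the Cyp3a KO (4.65 to 5.19). Nr1d1 shares 263 exonic bases (8.55%) with Thra on the opposite strand, and Thra stood at 6.59 to 11.3 CPM.

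Nr1d2 (REV-ERBbeta; chromosome 14, 18204054 to 18239127, minus strand) did not share that peak. Its level was 49.1 CPM for WT, 39.4 for the Cyp27a1 KO, 91.9 for the Cyp3a KO and 113 for the DKO. The 2 libraries without Cyp3a were the higher ones. The DKO was 2.30-fold above WT (2.20 to 2.42) and 2.87-fold above the Cyp27a1 KO (2.73 to 3.02), whereas the Cyp3a KO was 1.87-fold above WT (1.78 to 1.97) and not called. Within the family, Nr1d1 supplied 33.1% of TPM for WT, 39.5% for the Cyp27a1 KO, 73.5% for the Cyp3a KO and 32.1% for the DKO.

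The Period genes encode the negative limb of the clock. Per1 (chromosome 11, 69095217 to 69109960, plus strand), which is also induced by glucocorticoid and cyclic AMP signals, stood at 41.3 CPM for WT, 29.2 for the Cyp27a1 KO, 35.5 for the Cyp3a KO and 29.8 for the DKO. It was called in 0 of the 5 comparisons. Its widest difference, the Cyp27a1 KO against WT, was 1.41-fold lower (1.32 to 1.51).

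Per2 (chromosome 1, 91415982 to 91459324, minus strand) was high in the DKO alone. It stood at 5.94 CPM for WT, 7.01 for the Cyp27a1 KO, 8.13 for the Cyp3a KO and 27.2 for the DKO. The DKO was 4.57-fold above WT (4.02 to 5.22), 3.34-fold above the Cyp3a KO (2.99 to 3.74) and 3.88-fold above the Cyp27a1 KO (3.45 to 4.37). On deposited TPM the excess over WT was 3.31-fold. The ratio of counts to TPM of Per2, relative to the median gene of each library, was 1.42 for WT, 2.53 for the Cyp27a1 KO, 1.80 for the Cyp3a KO and 2.54 for the DKO, so the transcript length behind its estimate differed between libraries.

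Per3 (chromosome 4, 151003652 to 151044665, minus strand), the gene with the 2 D-boxes printed above, stood at 2.53 CPM for WT, 2.45 for the Cyp27a1 KO, 5.15 for the Cyp3a KO and 22.6 for the DKO. It ordered the libraries without Cyp3a above the others, with the DKO highest. The DKO was 8.94-fold above WT (7.40 to 10.9), 9.24-fold above the Cyp27a1 KO (7.67 to 11.2) and 4.39-fold above the Cyp3a KO (3.84 to 5.04). The Cyp3a KO was 2.04-fold above WT (1.63 to 2.55) by CPM but had a log2 fold of 0.90 with the added 0.5 CPM, so it was not called. Per1 made up 80.4% of Period transcripts by TPM in WT and 42.8% in the DKO, where Per2 supplied 29.5% and Per3 27.7%.

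**Figure D3:**
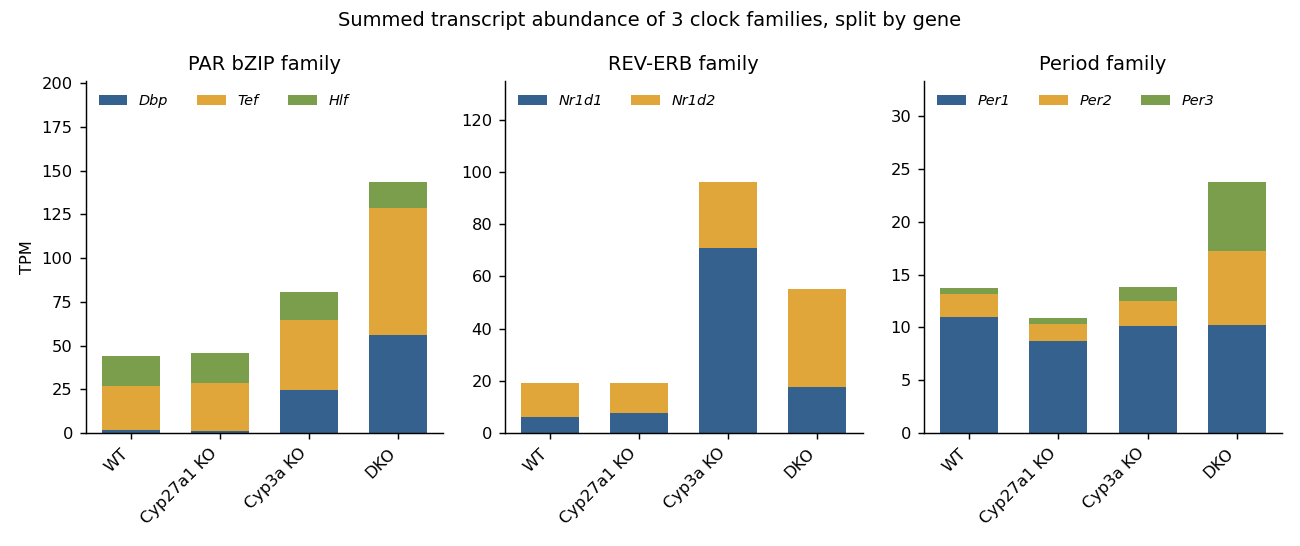
Deposited TPM (vertical axis) of the PAR bZIP, REV-ERB and Period families in the 4 libraries, each bar stacked by gene. The PAR bZIP sum reaches 144 TPM in the DKO with Dbp and Tef as its main parts, the REV-ERB sum is highest in the Cyp3a KO through Nr1d1, and the Period sum of the DKO gains from Per2 and Per3 while Per1 stays at 8.71 to 11.0 TPM.

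Cry2 (chromosome 2, 92403646 to 92434043, minus strand), a cryptochrome that represses the activators with the PER proteins, stood at 32.0 CPM for WT, 30.5 for the Cyp27a1 KO, 36.4 for the Cyp3a KO and 46.3 for the DKO. It was called in 0 of the 5 comparisons, and the DKO was 1.45-fold above WT (1.36 to 1.54). Bhlhe41 (DEC2; chromosome 6, 145858243 to 145865558, minus strand), a helix-loop-helix repressor that competes for E-boxes, had the lowest mean CPM of the 10. Its counts were 8 for WT, 45 for the Cyp27a1 KO, 260 for the Cyp3a KO and 22 for the DKO, or 0.172, 0.904, 5.19 and 0.406 CPM. The Cyp3a KO was 30.3-fold above WT (15.1 to 70.8), or 18.4-fold on deposited TPM. The Cyp27a1 KO was 5.27-fold above WT (2.46 to 12.9), a call lost on deposited TPM, with a mean of at least 5 CPM and with a pseudocount of 2. The DKO stood 12.8-fold below the Cyp3a KO (8.26 to 20.8), or 6.13-fold on deposited TPM. Its ratio of counts to TPM, taken as for Per2, varied 1.74 times between libraries. Bhlhe41 shares 1280 exonic bases (19.0%) with Gm43909 on the opposite strand, a gene without counts in the deposited tables. Smaller overlaps of this kind were 2.45% for Tef and 4.67% for Cry2. Bhlhe41 and Nr1d1 both had a high Cyp3a KO and a lower DKO. They were the 2 genes called lower in the DKO than in the Cyp3a KO, as were 2.70% of all genes measured. Bhlhe41 passed the filter only through the Cyp3a KO library, so its place in this pattern is tied to the filter.

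Counted over the group, 1 of 10 genes was called higher in the Cyp27a1 KO than in WT (Bhlhe41) and 0 lower, against 2.44% and 1.36% of the 11743 genes measured. In the Cyp3a KO against WT, 3 were higher (Dbp, Nr1d1, Bhlhe41) and 0 lower, against 2.56% and 1.86% of all genes. Bhlhe41 passed the filter only through the Cyp3a KO library, so its call there is tied to the filter; on deposited TPM and with a mean of at least 5 CPM it was not measured and the count was 2. In the DKO against WT, 6 were higher (Dbp, Tef, Nr1d1, Nr1d2, Per2, Per3) and 0 lower, against 6.0% and 4.02%. These 3 comparisons share the WT library, so they are not separate observations, and the single call in the Cyp27a1 KO rests on 45 against 8 counts. The median log2 folds of the 10 were -0.15, 0.66 and 1.06 in that order, and those of all genes measured were 0.00, 0.01 and -0.01.

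Against the single knockouts, the DKO had 2 of 10 genes higher (Per2, Per3) and 2 lower (Nr1d1, Bhlhe41) than the Cyp3a KO, where 4.02% and 2.70% of all genes were called. The lower call of Bhlhe41 is tied to the filter, which it passed only through the Cyp3a KO library. On deposited TPM and with a mean of at least 5 CPM the lower count was 1 (Nr1d1). The DKO had 5 higher (Dbp, Tef, Nr1d2, Per2, Per3) and 0 lower than the Cyp27a1 KO, where 2.84% and 2.59% were called. The medians of the 10 were 0.32 and 1.12, and those of all genes -0.02 and -0.01. The balance of calls over all genes moved with scaling: higher calls were 64.2% of calls in the Cyp27a1 KO against WT and 77.6% on deposited TPM, 59.9% in the DKO against WT and 82.7% on deposited TPM (73.3% with library-total scaling), 59.8% and 77.7% in the DKO against the Cyp3a KO, and 52.3% and 65.6% in the DKO against the Cyp27a1 KO. On deposited TPM the median of all genes in the DKO against WT was 0.33, and the same 6 of the 10 genes were called higher.

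**Figure D4:**
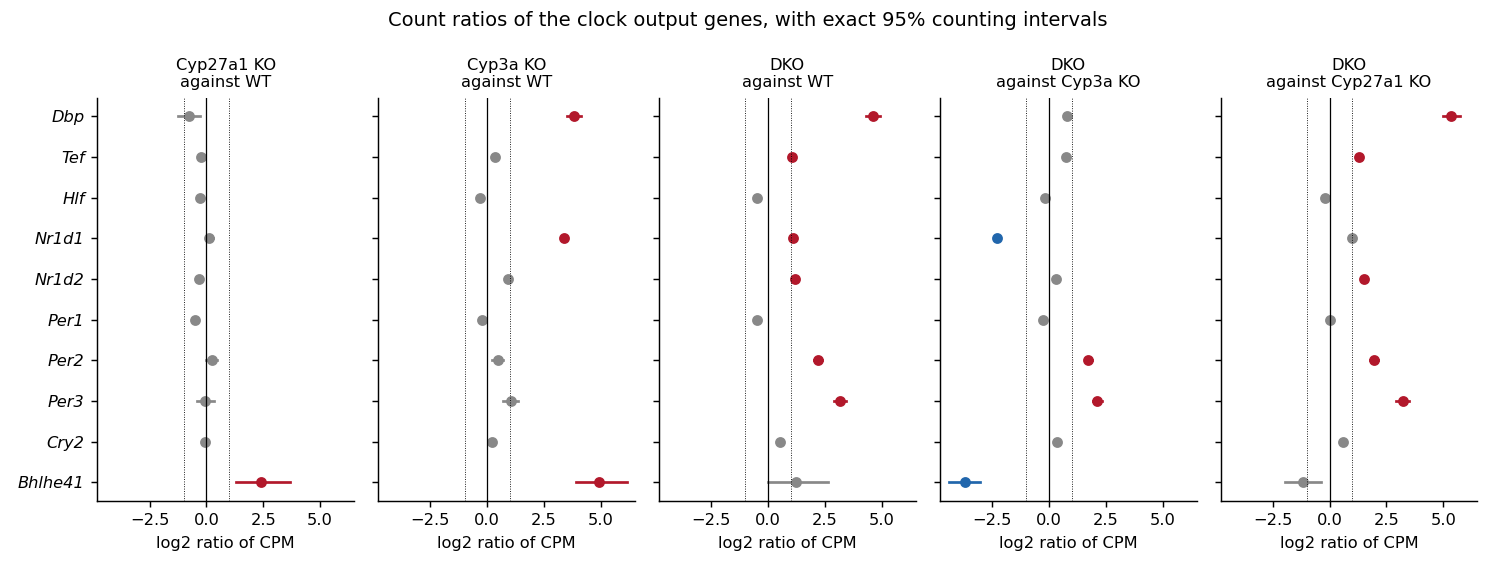
Log2 ratio of CPM without pseudocount (horizontal axis) of the 10 genes in the 5 comparisons; lines are exact 95% counting intervals, red and blue mark genes called higher and lower, grey marks genes not called, and dotted lines stand at 2-fold. Against WT, the Cyp27a1 KO has 1 red gene (Bhlhe41), the Cyp3a KO 3 and the DKO 6.

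The libraries form 2 pairs that differ by Cyp3a and share no library, the Cyp3a KO against WT and the DKO against the Cyp27a1 KO. Dbp was the single gene of the 10 called higher in both, with log2 folds of 3.52 and 4.87. Over all genes 89 were, 0.758% of those measured. With library-total scaling and on deposited TPM, recentred or not, Nr1d1 was also called higher in both. Nr1d1 had log2 folds of 3.35 and 0.95, Per3 0.90 and 2.97, Per2 0.42 and 1.88, Nr1d2 0.90 and 1.51, and Tef 0.32 and 1.28, the same direction with unlike sizes. Cry2 had 0.18 and 0.59, Hlf -0.30 and -0.18, and Per1 -0.21 and 0.03, none of them called. Bhlhe41 was opposite, at 3.08 and -0.63. In the 2 pairs that differ by Cyp27a1, the Cyp27a1 KO against WT and the DKO against the Cyp3a KO, 0 of the 10 were called higher in both, and 116 of all genes were (0.988%).

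The departure from additivity, the log2 level of the DKO minus that of both single knockouts plus WT, was at least 1 for 3 genes and at most -1 for 2 genes of the 10. It was 2.07 for Per3, 1.46 for Per2 and 1.35 for Dbp, and -2.40 for Nr1d1 and -3.71 for Bhlhe41. Of all genes measured, 3.41% were at least 1 and 3.49% at most -1. Tef (0.96), Nr1d2 (0.61), Cry2 (0.41), Per1 (0.24) and Hlf (0.12) lay inside these limits. Bhlhe41 passed the filter only through the Cyp3a KO library, so its place among the genes at most -1 is tied to the filter.

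The genes of the opposite phase were set beside them. Of 5 Arntl phase genes, 0 were called in the Cyp27a1 KO against WT, 3 were lower in the Cyp3a KO (Arntl, Npas2, Cry1) and 4 were lower in the DKO (the same with Nfil3), and 0 were higher in these 3 comparisons. The shares of all genes measured that were lower than in WT were 1.36% (Cyp27a1 KO), 1.86% (Cyp3a KO) and 4.02% (DKO). Arntl, the activator partner of CLOCK, stood at 29.6 CPM for WT, 28.9 for the Cyp27a1 KO, 10.6 for the Cyp3a KO and 1.98 for the DKO. Npas2, its other partner, had 227, 301, 37 and 10 counts. Nfil3, the D-box repressor, stood at 64.8, 75.9, 39.2 and 7.0 CPM, and Cry1 at 39.6, 26.6, 6.83 and 7.48 CPM. Libraries high for Dbp were thus low for Arntl, Npas2 and Cry1.

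Ratios within a library do not depend on scaling between libraries. Dbp counts were 0.0696 of Arntl counts in WT (0.0560 to 0.0857), 0.0423 in the Cyp27a1 KO (0.0322 to 0.0547), 2.74 times Arntl in the Cyp3a KO (2.48 to 3.03) and 25.3 times in the DKO (20.9 to 31.0). Nr1d1 over Arntl was 0.460 for WT, 0.513 for the Cyp27a1 KO, 13.6 for the Cyp3a KO and 14.8 for the DKO, while Nr1d1 over Dbp was 6.61, 12.1, 4.96 and 0.583. The DKO therefore stood apart from the Cyp3a KO in the balance of Nr1d1 to Dbp, not in that of Nr1d1 to Arntl. Both Nr1d1 (4.91-fold) and Arntl (5.35-fold) were lower in the DKO than in the Cyp3a KO, so their ratio hides a shared difference. Summed by TPM, PAR bZIP activators over the repressor Nfil3 were 1.09 for WT, 0.859 for the Cyp27a1 KO, 3.13 for the Cyp3a KO and 25.8 for the DKO.

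**Figure D5:**
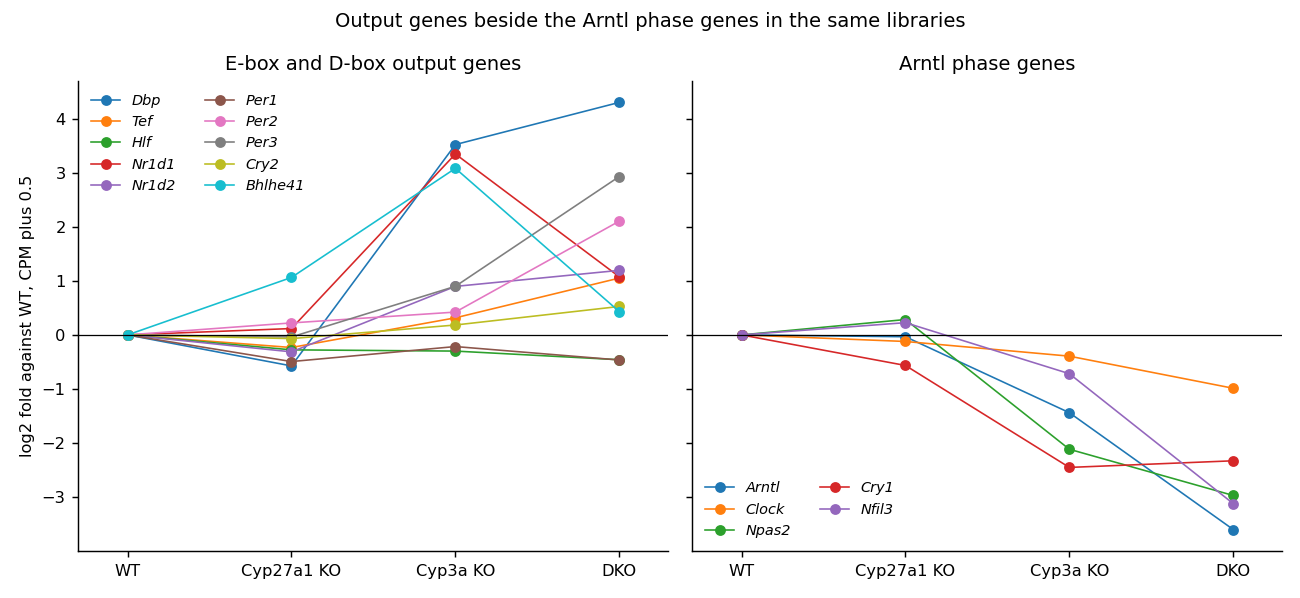
Log2 fold against WT of CPM plus 0.5 (vertical axis) for the 10 output genes (left) and 5 Arntl phase genes (right) in the 4 libraries; lines join the values of a gene and imply no order of genotypes. In the DKO, Dbp is at 4.30 and Arntl at -3.60, while in the Cyp27a1 KO most genes of both panels are near 0.

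Among 8 further rhythmic liver genes the counts were mixed. Over all genes measured, 2.44% (Cyp27a1 KO), 2.56% (Cyp3a KO) and 6.0% (DKO) were called higher than in WT, and 1.36%, 1.86% and 4.02% lower. Wee1, a mitotic kinase gene with E-boxes in its promoter, was 6.26-fold higher in the DKO than in WT (5.19 to 7.60), from 2.70 to 16.9 CPM, the 1 gene called higher there, and stood at 3.91 CPM in the Cyp3a KO. Avpr1a, a vasopressin receptor, stood at 36.8 CPM for WT, 8.63 for the Cyp27a1 KO, 18.2 for the Cyp3a KO and 3.14 for the DKO, and was called lower in the Cyp27a1 KO (4.26-fold, 3.83 to 4.75) and the DKO (11.7-fold). Lonrf3 stood at 5.10, 5.08, 2.18 and 1.31 CPM in that order and was called lower in the Cyp3a KO (2.35-fold, 1.86 to 2.97) and the DKO (3.89-fold). Ciart, a clock repressor, was the other gene lower in the Cyp27a1 KO, by 2.53-fold (2.08 to 3.10). Of 8 measured other clock components of 9 listed, 1 was higher in the Cyp3a KO (Bhlhe40, the partner repressor of Bhlhe41, 2.68-fold) and 1 in the DKO (Csnk1e, a kinase that acts on PER proteins, 2.30-fold), and 0 were lower.

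Of 9 liver genes placed downstream of the PAR bZIP factors, the number called higher than in WT was 4 for the Cyp27a1 KO, 2 for the Cyp3a KO and 4 for the DKO, and 0 were lower. Over all genes measured, 2.44%, 2.56% and 6.0% were higher and 1.36%, 1.86% and 4.02% lower in the same order. The 4 genes called were Cyp2a5, Cyp2a4, Cyp2b10 and Cyp7a1, and Cyp2a5 stood at 427 CPM for WT, 3004 for the Cyp27a1 KO, 1310 for the Cyp3a KO and 7401 for the DKO. Cyp7a1 stood at 22.4, 362, 41.3 and 173 CPM in that order, so its highest level was in the Cyp27a1 KO. Alas1, Por, Nr1i3, Cyp2c37 and Ppara, also in the list, were called in 0 of the comparisons with WT. Cyp2a4 and Cyp2a5 are near-identical, so the split of counts between them is uncertain.

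Signals that can act on clock genes were listed as well, as Per1 and Per2 respond to them. For reading the counts, 2.44% (Cyp27a1 KO), 2.56% (Cyp3a KO) and 6.0% (DKO) of all genes measured were called higher than in WT. The shares called lower were 1.36%, 1.86% and 4.02%. Of 9 glucocorticoid-responsive genes 0 were higher in any comparison with WT, and 2 were lower in the Cyp3a KO (Fkbp5, Mt2) and 1 in the DKO (Dusp1). Of 9 measured immediate early genes of 10 listed, the number higher was 3 for the Cyp27a1 KO and 6 for each library without Cyp3a, with Egr1 at 15.1 CPM for WT, 121 for the Cyp27a1 KO, 92.6 for the Cyp3a KO and 80.3 for the DKO. WT was the low library for Egr1. Of 8 heat shock genes 0, 1 and 2 were higher (Hspa1b in both libraries without Cyp3a), and the cold-inducible Cirbp and Rbm3 were called in 0 comparisons. Of 9 fasting and feeding genes, 1 was lower in the Cyp27a1 KO (Fgf21), 3 were lower in the Cyp3a KO (Fgf21, Pdk4, Igfbp1) with Srebf1 higher, and 2 were lower in the DKO (Fgf21, Pdk4) with Fasn higher. Fgf21 stood at 3.43 CPM for WT, 0.341 for the Cyp27a1 KO, 0.719 for the Cyp3a KO and 0.203 for the DKO. It passed the filter only through the WT library, so its lower calls are tied to the filter. The part of these signals in the clock gene levels was not tested.

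Markers of other cells also moved between the libraries. Summed over 7 Kupffer cell markers the level was 175 CPM for WT, 184 for the Cyp27a1 KO, 118 for the Cyp3a KO and 300.2 for the DKO. Of the 7, 2 were called higher in the DKO and 1 lower in the Cyp3a KO than in WT, against 6.0% and 1.86% of all genes. The 4 erythroid genes summed to 415, 330.2, 215 and 188 CPM but did not move together. Alas2 stood at 87.7 CPM for WT, 146 for the Cyp27a1 KO, 103 for the Cyp3a KO and 29.2 for the DKO. The globin genes Hba-a1, Hbb-bs and Hbb-bt were each lowest in the Cyp3a KO, at 32.1, 62.8 and 17.2 CPM, and higher in the DKO, at 58.2, 79.7 and 20.6 CPM. Endothelial, stellate and cholangiocyte sums ranged over 128 to 166, 158 to 211 and 31.3 to 43.1 CPM, T and NK, B cell and neutrophil sums were at most 15.0 CPM, and 0 of the markers had a count of 0 in every library. In whole liver, fewer cells of a type and less RNA per cell cannot be told apart, and the part of these cells in the clock gene values was not tested.

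The genes nearest to an output gene in pattern were found by the Euclidean distance between log2 profiles over the 4 libraries, centred on each gene's mean, among 8922 other genes with a mean of at least 5 CPM. Nearest to Dbp were Hsd17b6, Hmgcs1, Mvd, RP23-145I16.3 and Idi1, at distances of 1.64 to 2.41, and Per3 stood at rank 11. Hmgcs1, Mvd and Idi1 encode enzymes of cholesterol synthesis, and Hmgcs1 stood at 119 CPM for WT, 198 for the Cyp27a1 KO, 551 for the Cyp3a KO and 1589 for the DKO. Nearest to Nr1d1 were Arrdc3, D6Wsu163e, Angptl8, Gdf15 and Trib3, and Arrdc3, at a distance of 0.29, stood at 18.6, 23.3, 179 and 46.7 CPM in the same order. Nearest to Per2 were Ly6a, Ank3, Pdzk1ip1, Gm20721 and Ctps2 (0.24 to 0.35), with Tef at rank 83 and Per3 at rank 94. Nearest to Per1, whose levels spanned 1.41 times, were Rhob, Atp6v0b, Dido1, Qpctl and Ssr4 (0.03 to 0.05). Ranks of the other output genes in this set ran from 11 (Per3) to 7306 (Hlf) for Dbp and from 98 (Nr1d2) to 8190 (Per3) for Nr1d1. They ran from 83 (Tef) to 8795 (Dbp) for Per2 and from 457 (Hlf) to 8882 (Dbp) for Per1. With 4 points a profile, likeness is a description of these libraries.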

How the data were processed

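Liver RNA of 4 mice was sequenced from TruSeq RNA Library Prep Kit v2 libraries, per the labels' protocols. The authors deposited 1 table of estimated counts and 1 of TPM, by gene symbol; per the submitters' processing notes, Trimmomatic 0.33, HISAT2 2.0.5, kallisto 0.43.1 and mm10 were involved, with no role stated, and the annotation is not given in the sources used here. Counts (57.7% whole as deposited) were rounded. TMM factors came from edgeR 4.0.16 (R 4.3.3) and median-of-ratios factors from DESeq2 1.42.0; no model was fitted, as each genotype has 1 library. One count was worth 0.0185 to 0.0214 CPM. Ratio intervals are Clopper-Pearson (conditional binomial) and single-count intervals exact Poisson, at 95%; without molecular identifiers, reads can repeat a molecule. The rule was tested on simulated counts. Coordinates came from GENCODE M21 by symbol (10 of 10 matched) and promoters from RefSeq (GRCm38.p6). The genes and lists were chosen with earlier results of these data known. Named in each list were up to 4 (clock and rhythmic lists) or 3 (other lists) genes with the largest folds against WT; others named were chosen after their values were seen, as were the Per3 window, the Tef, Cry2 and Hlf stretches and the genes of the ratios. One gene of the Arntl phase list is not reported here. A planned comparison of the DBP, TEF and HLF proteins was not made. Computation used Python 3.11.15, numpy 2.4.6, scipy 1.17.1 and pandas 2.3.3.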

Additional observations from a re-analysis of the deposited data

Results flagged for a closer look

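In Bhlhe41, Dbp, Tef and Nr1d2, the 2 pairs of libraries that differ by the same deletion had folds of opposite direction, with counting intervals that excluded 1 in both pairs. The difference was not tested, as each library is 1 mouse. The share of all genes measured that meets this rule was not counted. Counting intervals are narrow for genes with many counts, so small folds can meet it. Bhlhe41 had log2 folds of 3.08 and -0.63 between the pairs that differ by Cyp3a (with Cyp27a1 intact and deleted) and 1.06 and -2.65 between those that differ by Cyp27a1 (with Cyp3a intact and deleted), a departure from additivity of -3.71 in either reading. Its departure was -5.27 with a pseudocount of 0.1, -2.00 with a pseudocount of 2 and -2.06 on deposited TPM.

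Between the pairs that differ by Cyp27a1, Dbp had log2 folds of -0.57 and 0.78 (departure 1.35), Tef -0.23 and 0.73 (departure 0.96) and Nr1d2 -0.31 and 0.30 (departure 0.61). These 6 folds were all under the 2-fold rule, and on deposited TPM the first fold of Tef was 0.12, so that its directions were no longer opposite there.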

How the results depend on the processing

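No paired analysis was possible because each genotype has 1 library. For the same reason no replicate could be left out. Across 50 folds of the 10 genes, 0 of the called folds changed sign under any alternative. With library-total scaling or deposited TPM, 6 folds that were not called changed sign, all at most 0.28 in size: Tef, Hlf, Per2, Per3 and Cry2 in the Cyp27a1 KO against WT, and Per1 in the DKO against the Cyp3a KO. The single gene called higher in the Cyp27a1 KO, Bhlhe41, was lost (count 0) on deposited TPM, recentred or not, with a mean of at least 5 CPM, with a pseudocount of 2 and with the 4-fold rule. The 4-fold rule left 3 genes higher in the DKO against WT, 1 against the Cyp3a KO and 2 against the Cyp27a1 KO. The DKO against the Cyp27a1 KO gained Nr1d1 (6 genes higher) with library-total scaling and on deposited TPM. Genes lower in the DKO than in the Cyp3a KO were 1 on deposited TPM, recentred or not, and with a mean of at least 5 CPM, where Bhlhe41 was not measured. The median fold of the group was -0.06 with library-total scaling and 0.00 on deposited TPM in the Cyp27a1 KO against WT, and 0.42 in the Cyp3a KO against WT with a mean of at least 5 CPM. In the DKO against WT it was 1.26 with library-total scaling and 1.52 on deposited TPM, and against the Cyp3a KO 0.44 and 0.55. Against the Cyp27a1 KO it was 1.23 with library-total scaling, 1.41 on deposited TPM, 1.25 on TPM recentred on the median gene (an alternative chosen after seeing the data) and 1.28 with a mean of at least 5 CPM. The cause was not tested, except that the stricter filter and TPM remove Bhlhe41. Over all genes, higher and lower calls with the 4-fold rule were 65 and 23 (Cyp27a1 KO), 51 and 38 (Cyp3a KO) and 197 and 114 (DKO) against WT, and 108 and 84 against the Cyp3a KO and 91 and 79 against the Cyp27a1 KO, where the 2-fold rule gave 287 and 160, 301 and 219, 705 and 472, 472 and 317, and 333 and 304. On deposited TPM they were 446 higher in the Cyp27a1 KO and 1280 and 268 in the DKO against WT, and 736 and 211 against the Cyp3a KO. A pseudocount of 2 gave 96 and 132 lower in the single knockouts and 311 higher in the DKO against the Cyp3a KO; a mean of at least 5 CPM gave 98 and 132 lower, and 454, 269 and 181 higher in the DKO against WT, the Cyp3a KO and the Cyp27a1 KO. At 8 to 22 counts, depth limits the values of Bhlhe41 in WT and the DKO.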
